A study of Homo sapiens with 4 samples.

Results

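The MHC class II genes and their master regulator CIITA were examined in human microglia-like cells that lack SHIP1. The set holds 10 genes of the 35585 with a name in the files: the chains HLA-DRA, HLA-DRB1, HLA-DPA1, HLA-DPB1, HLA-DQA1 and HLA-DQB1, the peptide loaders HLA-DMA and HLA-DMB, the invariant chain CD74, and CIITA. They were chosen by name as the class II presentation pathway, not by a measured value, though with earlier results of these data known. All 10 were among the 15378 genes that passed the filter on low counts. The cells, iMGL, were grown by a published differentiation protocol from the established human iPSC line WTC11. The S1KO group (2 libraries) came from cells edited to lack SHIP1, the inositol 5-phosphatase encoded by INPP5D, and the WT group (2 libraries) came from unedited cells of the same line. The labels name no treatment in either group. The design text speaks of 2 clones per genotype, but no label ties a replicate number to a clone, so errors and p-values measure only the spread between these libraries.

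MHC class II molecules are pairs of an alpha and a beta chain that display peptides from the endosomes and lysosomes of professional antigen-presenting cells to CD4+ T cells. The chains assemble on the invariant chain CD74, and HLA-DM removes the last CD74 fragment and lets peptide bind. CIITA is the coactivator that switches the whole set on. It does not bind DNA itself but docks on factors that sit on the X and Y boxes upstream of each gene, with RFX on the X box and NF-Y on the Y box. In the brain, microglia are the main resident cells that can carry MHC class II, with low levels at rest and high levels after interferon gamma.

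The shared X and Y boxes are the sequence feature that ties these genes to CIITA. RefSeq start sites (GRCh38.p14) were available for 8 of the 10 members, with 9 entries since HLA-DPA1 has a pair of starts. HLA-DRA and CIITA had no entry. Each entry covers 250 bases before to 50 after the start. The X box was searched as AG, any 2 bases, AC, any 3 bases and TG, and the Y box as ATTGG, both on either strand. Of 35116 human promoters, 12.5% held the first word and 34.6% the second. A pair was counted when the X word lay on the gene's strand and a Y word in either orientation began 20 to 40 bases after it, both before the start. Such a pair was found upstream of 4 members and in 0.179% of all promoters. The words and spacing were set with these promoters in view, so this is a description. The stretches that hold the pairs are printed 5′ to 3′ on the gene's strand, with the X and Y words in capitals.
HLA-DRB1: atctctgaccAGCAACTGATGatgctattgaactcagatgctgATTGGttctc
HLA-DQB1: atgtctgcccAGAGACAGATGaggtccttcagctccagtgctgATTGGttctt
HLA-DMA: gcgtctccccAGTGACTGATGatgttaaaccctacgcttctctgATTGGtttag
CD74: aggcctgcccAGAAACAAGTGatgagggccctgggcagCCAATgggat

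All 4 stretches lie on the minus strand. They are at chr6:32589885-32589937 for HLA-DRB1, chr6:32666736-32666788 for HLA-DQB1, chr6:32953167-32953220 for HLA-DMA and chr5:150412954-150413001 for CD74. The X word begins 33 bases before the Y word in HLA-DRB1 and HLA-DQB1, 34 in HLA-DMA and 28 in CD74, where the Y word is in the opposite orientation (CCAAT). HLA-DMB held the X word without a paired Y word, and HLA-DPB1 and HLA-DQA1 held Y words only. Neither word was found at either start of HLA-DPA1. A missing word says only that these letters are not in the window.

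The libraries themselves differed in ways that touch what follows. Total estimated counts were 21516813 to 25927881 per library, but mitochondrially encoded genes took 52.32% and 39.24% of them in S1KO 1 and S1KO 2, against 14.2% and 18.9% in WT 1 and WT 2. Levels are therefore compared between libraries as CPM scaled by TMM, which sets the typical gene equal between libraries, and between genes as TPM; a comparison of the genotypes in TPM is given once beside them. WT 1 held transcripts of mesenchymal cells: the summed CPM of 6 mesenchymal markers was 7.15 and 18.5 in S1KO 1 and S1KO 2, and 3163 in WT 1 against 2.74 in WT 2. The targeted gene INPP5D stood at 81.0 and 97.6 CPM in S1KO and at 355.6 and 440.9 CPM in WT, which fits the labels. Transcripts of all 10 microglia and myeloid markers were present in every library, with SPI1, the myeloid factor PU.1, at 685.1 CPM or more.

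The class II set was abundant in all 4 libraries. CD74 was the highest member in each, at 930 and 2002 TPM in S1KO 1 and S1KO 2 and at 3779 and 8094 TPM in WT 1 and WT 2. It ranked 34 and 25 among all genes by TPM in S1KO, and 25 and 18 in WT. HLA-DRA came next in every library, at 325.7 and 612.6 TPM in S1KO and 940.5 and 2191 TPM in WT, and CIITA was lowest in every library, at 28.7 and 50.4 TPM in S1KO and 35.1 and 111.5 TPM in WT. The order between these ends was not fixed. Behind HLA-DRA came HLA-DPB1 in both S1KO libraries and HLA-DRB1 in both WT libraries, and neighbours such as HLA-DQA1 and HLA-DQB1 changed places between libraries. Together the 10 genes took 0.625% (95% Wilson interval 0.62 to 0.63) and 0.868% (0.863 to 0.873) of the counts outside mitochondrial genes in S1KO 1 and S1KO 2. In WT 1 they took 0.879% (0.875 to 0.884) and in WT 2 2.08% (2.07 to 2.08). These intervals cover counting error only, and the distance between the WT libraries was far larger than they are.

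Across the set, WT 2 stood above the other 3 libraries, while both S1KO libraries lay near WT 1. All 10 members were highest in WT 2. Taken over WT 1 alone, 51.7% of all tested genes were higher in WT 2. The share of all tested genes that were highest in WT 2 was not counted. The excess of WT 2 over WT 1 ran from 1.57-fold for HLA-DMB to 4.13-fold for HLA-DQB1, with a median of 2.49-fold. It reached 2-fold in 8 of 10 members, against 4.6% of all tested genes, and the median log2 ratio over all tested genes was 0.017. The S1KO libraries differed far less from each other: S1KO 2 was above S1KO 1 in all 10 members, as in 50.8% of all tested genes, by 1.03-fold to 1.35-fold, and in none by 2-fold (3.95% of all tested genes). Each of these comparisons has 1 library on a side, so no test applies.

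**Figure D1:**
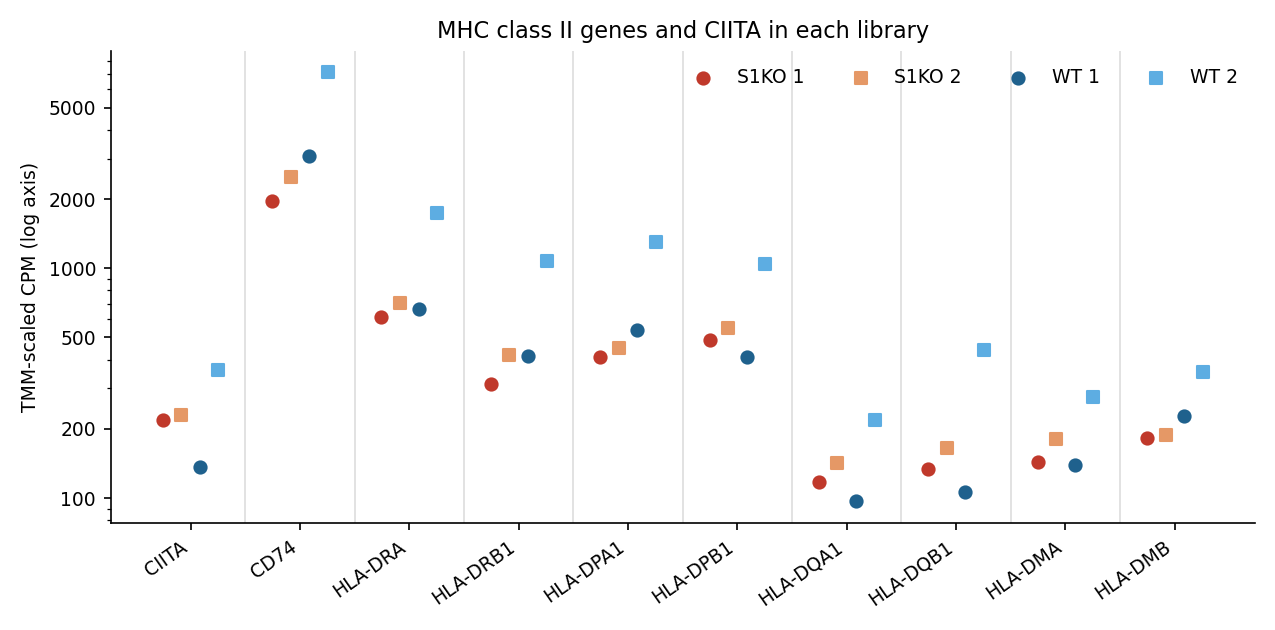
TMM-scaled CPM of the 10 genes in each library on a log axis, with S1KO 1 and S1KO 2 left of WT 1 and WT 2 for each gene; each point is 1 library. WT 2 is the highest point for every gene, from 217.6 CPM for HLA-DQA1 to 7125 for CD74, while WT 1 lies within or beside the S1KO points for most genes.

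The regulator CIITA (ENSG00000179583, chromosome 16, 10866222 to 10943021 in GRCh38, plus strand) was also highest in WT 2, with both S1KO libraries above WT 1. It stood at 219.2 CPM in S1KO 1 and 230.6 in S1KO 2, and at 136.0 in WT 1 and 361.6 in WT 2. Both S1KO libraries lay between the WT libraries. The means were 224.9 ± 8.1 CPM in S1KO and 248.8 ± 159.5 CPM in WT (SD, n = 2 each). Its log2 fold change was -0.15 with SE 0.42 (95% interval -1.16 to 0.87, adjusted p = 0.880 by edgeR), and the sign turned under 4 of the 17 alternatives. Transcripts starting between 10877198 and 10877331 took 86.4% and 84.2% of its counts in S1KO and 92.3% and 89.2% in WT. Transcripts starting at 10866222 or 10866260 took at most 0.56% in any library, and that starting at 10878969 at most 0.65%. CIITA is known to have alternative first exons used in different cell types, but short annotated transcripts share most of their bases with the long ones, so counts tell starts apart only weakly.

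Among the chains, HLA-DR is the most abundant class II molecule on most presenting cells. The alpha chain HLA-DRA (ENSG00000204287, chromosome 6, 32439842 to 32445046, plus strand) had 613.2 and 703.5 CPM in S1KO 1 and S1KO 2, against 664.6 and 1737 CPM in WT 1 and WT 2. WT 1 lay between the S1KO libraries, and the fold change of -0.87 on the log2 scale (SE 0.44) did not pass the threshold (edgeR adjusted p = 0.338). Its partner HLA-DRB1 had 312.4 and 420.8 CPM in S1KO, against 416.1 and 1074 CPM in WT, with a log2 fold change of -1.02 (SE 0.44, edgeR adjusted p = 0.271). Here too the groups overlapped, by a few CPM.

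HLA-DP differed between its chains. HLA-DPA1, the alpha chain, had 409.9 and 450.3 CPM in S1KO and 537.8 and 1301 CPM in WT, so the genotypes did not overlap (log2 fold change -1.10, SE 0.41, 95% interval -2.07 to -0.12, edgeR adjusted p = 0.217). HLA-DPB1, the beta chain, had 489.4 and 547.8 CPM in S1KO and 409.1 and 1048 CPM in WT, so WT 1 was the lowest library (log2 fold change -0.49, SE 0.42, edgeR adjusted p = 0.569). These genes lie head to head on opposite strands and overlap, HLA-DPA1 spanning 33064569 to 33080775 and HLA-DPB1 33075926 to 33087201 on chromosome 6. No source used here states the strandedness of the libraries, so reads from the overlap cannot be told apart.

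The HLA-DQ chains were the lowest of the classical chains in TPM, at 41.8 to 121.6 TPM in S1KO and 108.3 to 494.7 TPM in WT. HLA-DQA1 had 117.0 and 142.6 CPM in S1KO and 96.7 and 217.6 CPM in WT, and HLA-DQB1 had 134.4 and 165.5 CPM in S1KO and 106.4 and 439.6 CPM in WT. In both genes WT 1 was the lowest and WT 2 the highest library, so the groups overlapped fully. Their log2 fold changes were -0.28 (SE 0.37) and -0.86 (SE 0.58), with edgeR adjusted p of 0.722 and 0.465.

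Of the peptide loaders and the chaperone, HLA-DMB and CD74 separated the genotypes and HLA-DMA did not. CD74 (ENSG00000019582, chromosome 5, 150401637 to 150412929, minus strand) had 1956 and 2505 CPM in S1KO and 3070 and 7125 CPM in WT. The genotypes did not overlap, with a log2 fold change of -1.19 (SE 0.44, 95% interval -2.25 to -0.13, edgeR adjusted p = 0.216). HLA-DMB had 182.1 and 187.9 CPM in S1KO and 226.4 and 355.1 CPM in WT (-0.65, SE 0.24, edgeR adjusted p = 0.219), also without overlap. HLA-DMA had 142.8 and 181.0 CPM in S1KO and 139.1 and 275.8 CPM in WT (-0.36, SE 0.33, edgeR adjusted p = 0.596), and WT 1 was its lowest library.

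No member was called between S1KO and WT by edgeR at an adjusted p under 0.05, where 0.936% of all tested genes were, 0.787% higher and 0.15% lower in S1KO. At an unadjusted p under 0.05 there were 3 members, CD74, HLA-DPA1 and HLA-DMB, and 2994 of the 15378 tested genes. DESeq2 called 2 members lower, CD74 (adjusted p = 0.0172) and HLA-DPA1 (adjusted p = 0.0369), where it called 7.52% of all tested genes, 4.24% higher and 3.28% lower. With no filter on low counts edgeR called 3 lower, CD74, HLA-DPA1 and HLA-DRB1, where it called 6.05% of 22522 genes, 2.6% higher and 3.45% lower. All 10 log2 fold changes were negative, with a median of -0.76 against -0.016 over all tested genes. In 3 of 10 the genotypes did not overlap, S1KO being the lower, a share near the 25.8% of all tested genes. The mitochondrial share was higher in both S1KO libraries, and within WT it was lower in WT 1 (14.2%) than in WT 2 (18.9%). Its part in the class II differences was not tested. In bulk RNA, fewer cells carrying class II and less class II RNA per cell cannot be told apart.

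On TPM, whose total includes the mitochondrial transcripts, the picture was of lower values throughout. The median over all tested genes was then -0.783 on log2(TPM + 1), and that of the members -1.53, a difference of -0.75, where TMM gave -0.74, log2(TPM + 0.1) -0.58 and TPM without mitochondrial genes -0.56. Limma on log2(TPM + 1) called 8 of 10 members lower, all but HLA-DMA and CIITA, where it called 18.8% of all tested genes, 0.865% higher and 17.9% lower. With mitochondrial genes taken out of the TPM total, an alternative added with the data in view, limma called 0 members (2 at an unadjusted p under 0.05) and 110 genes in all, and the members' median was -0.64. In TPM the genotypes did not overlap in 8 members, all but HLA-DQB1 and CIITA, S1KO being the lower, as in 71% of all tested genes.

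Set against the WT libraries one at a time, S1KO gave different answers. Against WT 2 alone, all 10 members were called lower, with log2 fold changes from -1.67 for CD74 to -0.68 for CIITA, a median of -1.21 and edgeR adjusted p from 4.31e-07 to 0.0408. In that comparison 6.36% of 16042 tested genes were called lower and 5.87% higher. Against WT 1 alone, no member was called lower (7.51% of 16171 tested genes were), the median was 0.11, and CIITA was called higher (log2 fold change 0.73, SE 0.24, edgeR adjusted p = 0.0289; 6.2% of tested genes were called higher). HLA-DRA was at -1.40 against WT 2 (95% interval -1.96 to -0.84) and at -0.01 against WT 1 (-0.57 to 0.55). CD74, the member with the lowest value against WT 1, was at -0.46 there (-1.18 to 0.27). In each of these fits the single WT library was assumed to vary like the S1KO pair, and both use the same S1KO libraries. Their difference is that between WT 2 and WT 1, with 1 library on each side, and was not tested. By library, S1KO 1 was below WT 1 in 5 of 10 members and S1KO 2 in 3 of 10, while each was below WT 2 in 10 of 10. The matching shares of all tested genes were not counted.

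**Figure D2:**
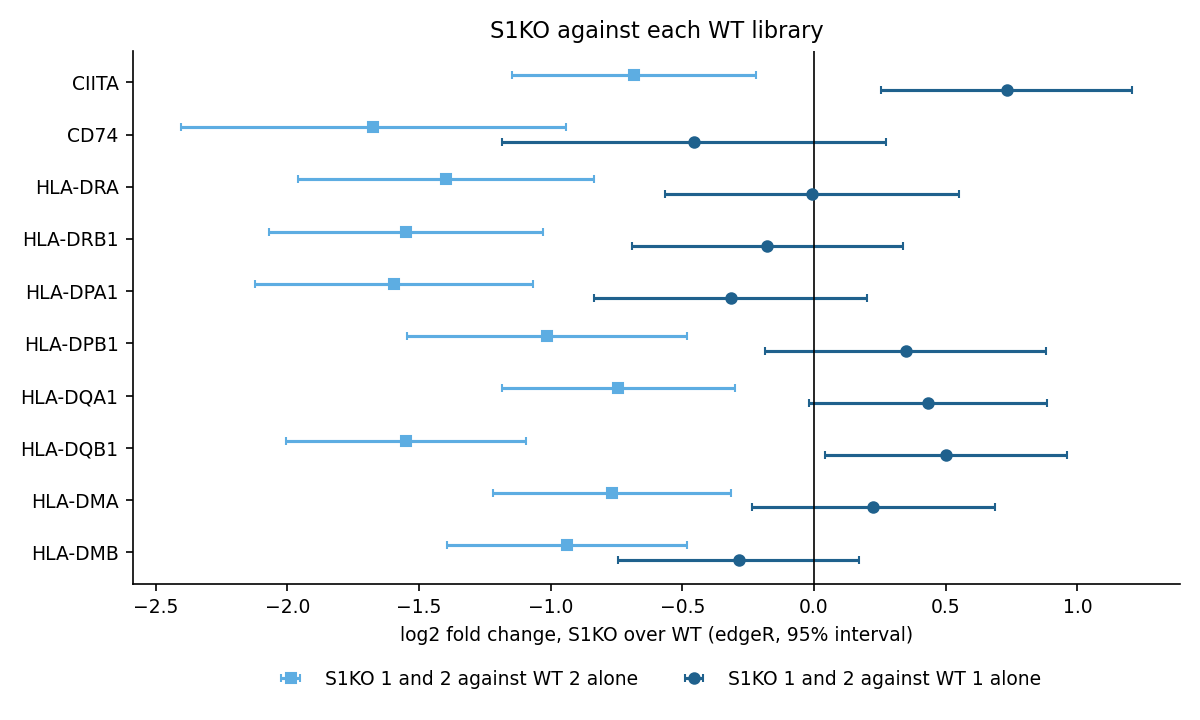
Log2 fold change of S1KO 1 and 2 over WT 2 alone (light squares) and over WT 1 alone (dark circles) for each gene, from edgeR, with 95% intervals. Every interval against WT 2 lies below 0; against WT 1 only CIITA and HLA-DQB1 have intervals above 0, and HLA-DQB1 (0.50, adjusted p = 0.152) did not pass the adjusted threshold.

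The ratio of WT 2 over WT 1 was smaller in most other lists of the pathway, as a description with 1 library on a side. Median log2 ratios of WT 2 over WT 1 were 1.32 for the members, 0.33 for 12 MHC class I genes, 0.33 for 7 genes of interferon gamma input, 0.26 for 7 partners of CIITA at the promoter and 0.24 for 8 genes of peptide processing and turnover. For the 10 microglia and myeloid markers the median was -0.023. Among the 3 of 5 other class II genes that passed the filter it was 1.44, and all 3 were past 2-fold. For the 3 costimulatory genes that passed it was 0.95. Of the other class II genes, HLA-DOA, a subunit of the HLA-DM modulator HLA-DO, had 15.2 and 16.0 CPM in S1KO and 7.93 and 22.1 CPM in WT, the same order of libraries as CIITA, and was called higher against WT 1 alone (0.98, edgeR adjusted p = 0.0171). edgeR called none of the 3 in S1KO against WT, at a median log2 fold change of -0.28, with 0 at an unadjusted p under 0.05 and 0 by DESeq2. HLA-DQA2 and HLA-DOB, which had the smallest p in this list, stayed at 2.37 CPM or less (-0.63, edgeR adjusted p = 0.692, and -0.28, edgeR adjusted p = 0.862). HLA-DQB2, named after its values were seen, had 0.487 and 0.428 CPM in S1KO and 0.322 and 7.30 CPM in WT.

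**Figure D3:**
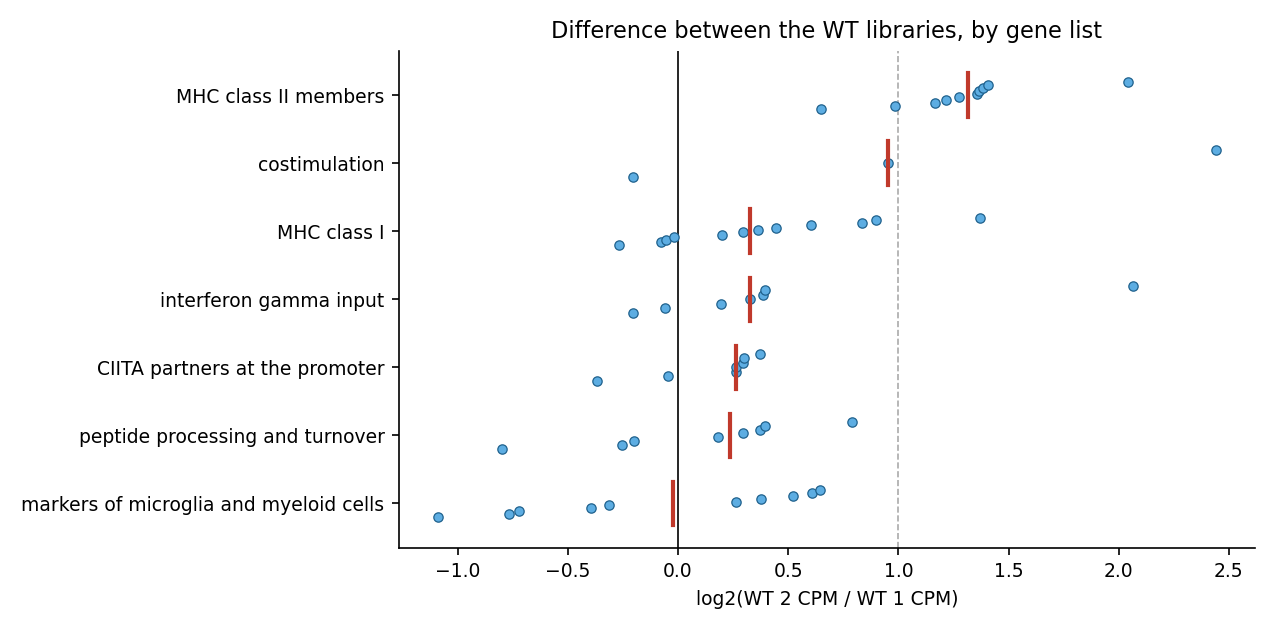
Log2 ratio of CPM in WT 2 over WT 1 for each tested gene (points, spread vertically for visibility only) of 7 gene lists; red bars are list medians and the dashed line marks 2-fold. The class II members centre on 1.32 and all lie above 0, whereas the microglia and myeloid markers centre on -0.023.

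Among the partners of CIITA on the X and Y boxes, none of RFX5, RFXAP, RFXANK, NFYA, NFYB, NFYC and CREB1 was called by edgeR, at an unadjusted p under 0.05, or by DESeq2, and the list's median log2 fold change was -0.13. NFYB (-0.43, SE 0.25, edgeR adjusted p = 0.398) and RFXANK (-0.26, SE 0.16, edgeR adjusted p = 0.419) had the smallest p. The levels ran from 2.07 CPM for RFXAP, in WT 2, to 76.7 CPM for RFX5, also in WT 2.

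Interferon gamma is the classical inducer of CIITA. None of the 7 genes of that input was called by edgeR (2 at an unadjusted p under 0.05), and DESeq2 called 1 lower, with a median log2 fold change of 0.024 over the list. Among all 15378 tested genes, 2994 had an unadjusted edgeR p under 0.05 and DESeq2 called 3.28% lower. IFNGR1, the ligand-binding receptor chain, had 103.8 and 123.9 CPM in S1KO and 191.4 and 183.4 CPM in WT (log2 fold change -0.72, SE 0.17, edgeR adjusted p = 0.103), and it was called lower against either WT library alone. JAK1, a kinase of that receptor, had 94.9 and 82.2 CPM in S1KO and 56.6 and 64.8 CPM in WT (0.55, SE 0.17, edgeR adjusted p = 0.17). IRF1, which acts on the CIITA promoter, had 31.5 and 35.2 CPM in S1KO and 28.1 and 35.3 CPM in WT. In IRF1, named after its values were seen, WT 2 was level with S1KO 2. The part of interferon gamma input in the class II values was not tested.

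Peptide processing genes had a median log2 fold change of -0.10 over 8 genes, with 0 called by edgeR or DESeq2 and 1 at an unadjusted p under 0.05 (2994 of all 15378 tested genes). That gene was CTSS, the cathepsin that degrades the invariant chain, at 178.0 and 155.5 CPM in S1KO and 205.8 and 266.6 CPM in WT (-0.50, SE 0.20, edgeR adjusted p = 0.235). MARCH1, the ubiquitin ligase that removes class II from the surface, had 56.8 and 58.8 CPM in S1KO and 54.7 and 72.0 CPM in WT.

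MHC class I genes gave another pattern from class II. The genotypes did not overlap in any of the 12: S1KO was the lower in 10 (25.8% of all tested genes) and the higher in the other 2, HLA-F and PSMB9 (26% of all tested genes). The median log2 fold change was -0.57, edgeR called none (5 at an unadjusted p under 0.05) and DESeq2 called 4 lower. Over all tested genes, 2994 of 15378 had an unadjusted edgeR p under 0.05 and DESeq2 called 3.28% lower. HLA-B had 18.3 and 25.1 CPM in S1KO and 39.7 and 60.5 CPM in WT (-1.21, SE 0.27, edgeR adjusted p = 0.0956). B2M, the light chain of class I, had 358.2 and 354.7 CPM in S1KO and 578.9 and 743.4 CPM in WT (-0.89, SE 0.21, edgeR adjusted p = 0.102). Without WT 2 the median was -0.42, against 0.11 for class II.

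Costimulatory genes, which presenting cells display beside class II, were measured for CD86, CD40 and CD83, while CD80 did not pass the filter. edgeR and DESeq2 called none, 1 had an unadjusted p under 0.05 (2994 of all 15378 tested genes), and the median log2 fold change was -0.68. CD40 had 25.1 CPM in both S1KO libraries and 36.3 and 31.5 CPM in WT (-0.43, SE 0.18, edgeR adjusted p = 0.253). CD86 had 53.3 and 47.0 CPM in S1KO and 54.8 and 106.1 CPM in WT (-0.68, SE 0.31, edgeR adjusted p = 0.294), high in WT 2 like the class II genes. CD83 had 56.1 and 69.3 CPM in S1KO and 33.0 and 180.1 CPM in WT, and like CIITA it was called lower against WT 2 alone (-1.52, edgeR adjusted p = 7.92e-08) and higher against WT 1 alone (0.94, edgeR adjusted p = 0.00253).

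Markers of other cells that carry class II were looked at beside these values. For dendritic cells the summed CPM of 8 markers was 212.1 and 217.6 in S1KO 1 and S1KO 2, and 208.0 and 351.4 in WT 1 and WT 2. Most of the excess in WT 2, in CPM, lay in FCER1A, the alpha chain of the IgE receptor, at 20.6 and 23.0 CPM in S1KO and 29.3 and 153.4 CPM in WT. LAMP3 and CCR7, markers of mature dendritic cells, had the library order of CIITA: LAMP3 stood at 13.7 and 13.9 CPM in S1KO and 2.61 and 17.5 CPM in WT, and was called higher against WT 1 alone (2.41, edgeR adjusted p = 8.28e-07), and CCR7 stood at 10.3 and 11.2 CPM in S1KO and 6.54 and 14.7 CPM in WT. CLEC10A had that order too, at 50.3 and 56.9 CPM in S1KO and 45.4 and 66.3 CPM in WT. CLEC9A went the other way within WT, at 1.82 CPM in WT 1 and 0.54 CPM in WT 2. How many of all tested genes have the library order of CIITA was not counted. CD1C ran from 98.6 to 122.2 CPM and was lowest in WT 2, and FLT3 and XCR1 stayed at 0.34 CPM or less in every library. Of the 5 B cell markers, MS4A1 and CD79B were at 0 in all 4 libraries and the sum ran from 1.35 to 1.99 CPM, both ends being S1KO libraries. The summed level of 4 monocyte markers was 94.7 and 79.4 CPM in S1KO and 122.2 and 79.6 CPM in WT, of which edgeR called FCN1, higher in S1KO (2.80, SE 0.37, edgeR adjusted p = 0.0405). That of 5 pluripotency markers was 15.8 and 18.3 CPM in S1KO and 16.8 and 13.7 CPM in WT. WT 1, the WT library lower in class II, was the one with mesenchymal transcripts, and the part of these cells in the class II values was not tested. Nor was that of cells with FCER1A, LAMP3, CCR7 or CLEC10A. The microglia and myeloid markers were themselves mostly lower in S1KO, with negative log2 fold changes in 8 of 10, all but AIF1 (0.13) and GPR34 (0.05). Their sum was 2429 and 2529 CPM in S1KO 1 and S1KO 2, against 3402 and 4030 CPM in WT 1 and WT 2. Their median log2 fold change was -0.73, near that of the class II set over both WT libraries. Against WT 2 alone it was -0.72, where class II was at -1.21, and against WT 1 alone -0.515, where class II was at 0.11. S1KO lay below WT without overlap in 7 of 10 (25.8% of all tested genes), all but SPI1, AIF1 and GPR34. edgeR called 1 lower, the microglial receptor P2RY12 (-1.45, SE 0.22, edgeR adjusted p = 0.0483), with 7 at an unadjusted p under 0.05, and DESeq2 called 7 lower. Over all tested genes edgeR called 0.15% lower, with 2994 of 15378 at an unadjusted p under 0.05, and DESeq2 called 3.28% lower. The part of these markers in the class II differences was not tested.

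Ratios between members within a library do not depend on how libraries are scaled, and some separated the genotypes where the levels overlapped. The ratio of HLA-DPA1 to HLA-DPB1 in TPM was 0.584 and 0.591 in S1KO 1 and S1KO 2, and 0.973 and 1.02 in WT 1 and WT 2. In estimated counts it was 0.838 and 0.822 in S1KO and 1.31 and 1.24 in WT. The groups were apart and the libraries of each genotype close together, although the WT libraries differed more than 2-fold in both genes. The ratio was singled out after its values were seen and was not tested; with 2 libraries per genotype an exact 2-sided permutation test could not go below a p of 0.333.

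Other ratios were mixed. HLA-DRA to HLA-DPA1 was 2.23 and 2.19 in S1KO and 1.59 and 1.63 in WT, close within each genotype like the HLA-DP ratio. HLA-DRA to HLA-DMA was 3.69 and 3.19 in S1KO and 4.25 and 5.30 in WT, without overlap. HLA-DRA to HLA-DQA1 was 7.79 and 7.49 in S1KO and 8.26 and 9.99 in WT, also without overlap. HLA-DRA to HLA-DRB1 was 1.81 and 1.54 in S1KO and 1.47 and 1.48 in WT, and CD74 to HLA-DRA was 2.86 and 3.27 in S1KO and 4.02 and 3.69 in WT, both without overlap. How many gene pairs outside those given here separate the genotypes in this way was not counted. In CPM, single genes did so in 25.8% (S1KO lower) and 26% (S1KO higher) of all tested genes. HLA-DQA1 to HLA-DQB1 was 0.689 and 0.673 in S1KO and 1.05 and 0.443 in WT, where S1KO lay between the WT libraries. HLA-DMA to HLA-DMB was 1.38 and 1.91 in S1KO and 0.992 and 1.44 in WT, with overlap.

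The ratio of its target genes to CIITA was lower in S1KO for most members. HLA-DRA stood at 11.3 and 12.2 times the TPM of CIITA in S1KO, against 26.8 and 19.6 times in WT, and CD74 at 32.4 and 39.7 times in S1KO, against 107.8 and 72.6 times in WT. In 8 of the 9 other members, all but HLA-DMA, the TPM ratio to CIITA was lower in either S1KO library than in either WT library, against 10.3% of all tested genes. In estimated counts this held for 7 of 9, all but HLA-DMA and HLA-DQA1, against 8.06% of all tested genes. All these ratios share the CIITA value of each library as their denominator, so they are not independent of each other, and they too were singled out after their values were seen.

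**Figure D4:**
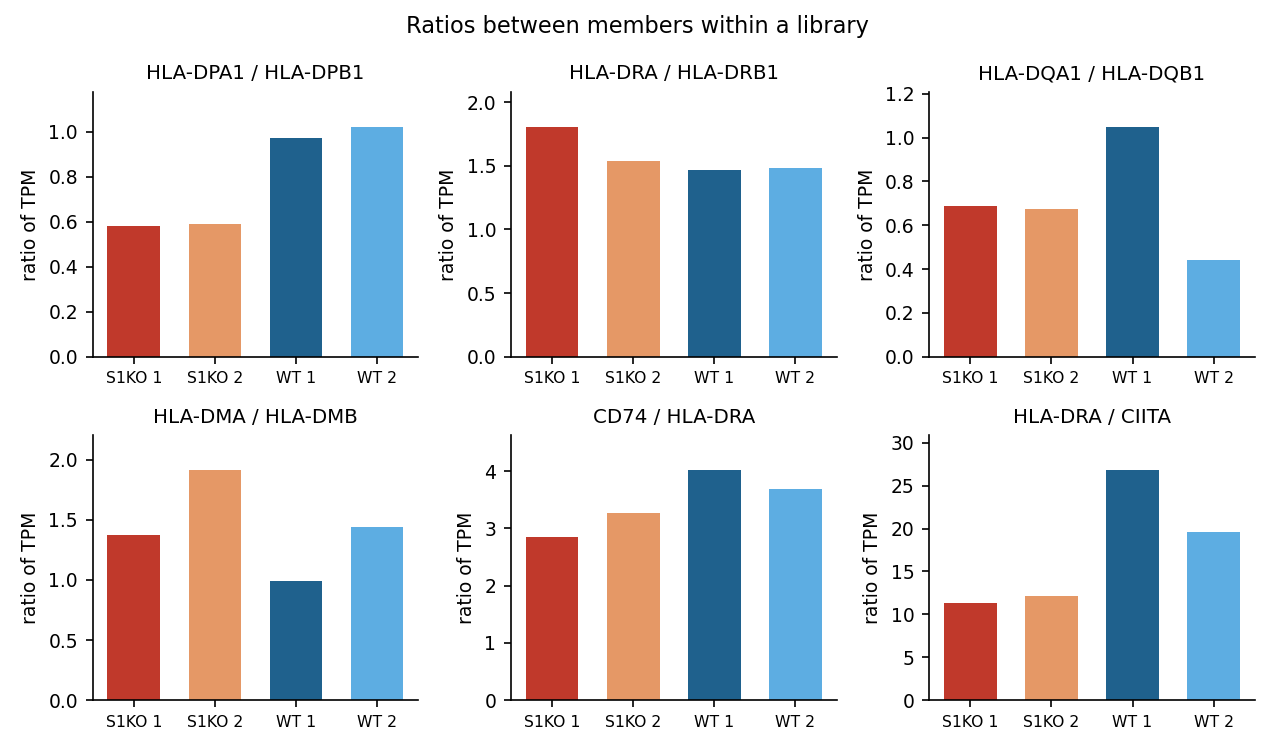
Ratios of TPM between members within each library, S1KO 1 and S1KO 2 left of WT 1 and WT 2; each bar is 1 library and axes start at 0. HLA-DPA1 over HLA-DPB1 is near 0.59 in both S1KO libraries and near 1 in both WT libraries, and HLA-DRA over CIITA is 11.3 and 12.2 in S1KO and 26.8 and 19.6 in WT, while HLA-DQA1 over HLA-DQB1 overlaps.

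The shares of some CD74 transcripts also lay apart between genotypes, a difference picked after its values were seen and not tested. A protein-coding transcript of 1138 bases held 16.5% (95% Wilson interval 16.1 to 16.9) and 21.7% (21.4 to 22.1) of CD74 counts in S1KO, against 10.5% (10.3 to 10.7) and 13.8% (13.6 to 13.9) in WT. These intervals cover counting error only. The main CD74 transcripts span nearly the same stretch of the gene, and the error of dividing reads among them is not included. The most abundant transcript, of 1449 bases, held 66.9% and 64.0% in S1KO and 74.3% and 67.5% in WT. Both shares separated the genotypes, that of the most abundant transcript only narrowly. The share of a protein-coding transcript of 1727 bases overlapped, at 7.7% and 5.9% in S1KO and 5.8% and 8.5% in WT. How often transcripts of other genes separate the genotypes in this way was not counted. Protein-coding transcripts together held 96.4% to 97.9% in every library.

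Outside the set, the 5 protein-coding genes whose log2 CPM followed HLA-DRA most closely over the 4 libraries, by the root mean square difference of centred values among 8609 tested genes with a mean of at least 5 TPM, were YPEL3 (0.029), JUNB, a subunit of the AP-1 transcription factor (0.067), PIM3, a serine/threonine kinase (0.084), MRPS6, a mitochondrial ribosomal protein (0.094), and RELT, a receptor of the TNF receptor family (0.097). All 5 were closer to HLA-DRA than any class II member was. JUNB had 153.8 and 194.8 CPM in S1KO and 175.0 and 490.9 CPM in WT. Among the members, HLA-DRB1 was the closest to HLA-DRA (0.119), then HLA-DPA1 (0.133), and CIITA the farthest (0.368). Over 4 libraries of which 1 stands apart, likeness says little more than that a gene is high in WT 2.

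The values of the HLA genes rest on copies outside the reference chromosomes. Chromosome 6 has several alternate versions of this region, and kallisto gave 98.1% or more of the counts of HLA-DRA, HLA-DRB1, HLA-DPA1, HLA-DPB1, HLA-DQA1 and HLA-DQB1 to transcripts on alternate contigs in every library. For HLA-DMA the share was 45.7% to 50.6% and for HLA-DMB 40.9% to 55%, while CD74 and CIITA have no alternate copies in the files. With the primary assembly alone HLA-DRA had at most 29.6 counts in a library, where both kinds of copy together gave 9101 to 54415, and it was not tested. Class II chains are also among the most variable genes of the genome and resemble their paralogs, so the split of reads between these genes is uncertain.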

How the data were processed

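PolyA RNA of 2 S1KO and 2 WT libraries of iMGL was sequenced in paired 150 bp reads, per the labels' protocols. The submitters' processing notes name kallisto and hg38, without a version or transcript set. Each deposited file gives an estimated count and a TPM per transcript, with its length and effective length, per the file headers.

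Of 188753 transcripts, 169797 were matched to genes by identifier in GENCODE 29, 15521 (mostly copies on alternate contigs) were added by symbol and 3435 had no name (0.323% to 0.643% of counts, left out). Gene sums of estimated counts were rounded, filtered (filterByExpr, 15378 of 35585 genes), scaled by TMM (0.654 and 0.957 in S1KO 1 and 2, 1.313 and 1.217 in WT 1 and 2) and tested with edgeR 4.0.16 (quasi-likelihood, two-sided, Benjamini-Hochberg at 0.05, R 4.3.3) on genotype alone. The common biological coefficient of variation was 0.294. Standard errors are those implied by the test. A log2 fold change is S1KO over WT. The procedure was tested on simulated data. Alternatives used DESeq2 1.42.0 and limma 3.58.1 on log2(TPM + 1) and log2(TPM + 0.1), other filters and scalings, and each library left out; 2 were chosen after the data were seen.

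Members and lists were chosen with earlier results of these data known. Beyond the members, each pathway list is given by its count and median, with its called genes and the 2 of smallest p by name; cell type marker lists are given by their summed level and called genes. Other genes named from a list were chosen after their values were seen. A gene of the interferon gamma list is not reported here by name.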

Additional observations from a re-analysis of the deposited data

How the results depend on the processing

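The count of members called was 0 and stayed so in 11 of 17 alternatives; it was 2 with DESeq2, 3 with no filter, 8 with limma on log2(TPM + 1) and on log2(TPM + 0.1), and 0 to 10 with a library left out, 10 without WT 1 and 1 (CIITA, higher) without WT 2. The members' median of -0.758 was -1.533 and -1.544 on the 2 TPM scales, whose total includes mitochondrial transcripts, and -1.206 (without WT 1) to 0.108 (without WT 2) with a library left out. Over all genes the 144 calls became 1157 with DESeq2, 1362 with no filter, 223 with a stricter filter, 21 with protein-coding transcripts only, 2893 and 2638 on the TPM scales, and 0 to 2217 with a library left out (0 without either S1KO library, 1963 without WT 1, 2217 without WT 2). Apart from the TPM scales, the causes were not tested. Signs turned for CIITA (0.019 with the replicate block, 0.016 with the effective length offset, 0.183 on TPM without mitochondrial genes, added with the data in view) and for HLA-DQA1 (0.082 on the primary assembly alone, where HLA-DRA and HLA-DQB1 could not be tested). On the primary assembly alone HLA-DQA1 held only 28.4 to 60.2 counts per library and HLA-DRB1 0 to 20.3, so their values there rest on few reads. With a library left out, HLA-DPB1 ran from -1.014 to 0.348, HLA-DQA1 from -0.743 to 0.431, HLA-DQB1 from -1.55 to 0.501, HLA-DMA from -0.766 to 0.225 and CIITA from -0.684 to 0.731. HLA-DRA, HLA-DRB1, HLA-DPA1, HLA-DMB and CD74 were negative in every alternative that tested them.

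The replicate block gave 0 calls over all genes (2893 at an unadjusted p under 0.05) and 0 members (4 at an unadjusted p under 0.05). Differences between replicates 1 and 2 correlated by 0.024 between the genotypes over genes. With a single such difference per genotype, this cannot show whether the replicate numbers pair the libraries. For protein-coding transcripts only, alternate copies were kept, since their type is not in the annotation used here. Depth outside mitochondrial genes was 10866559 and 13571447 counts in S1KO against 18461467 and 21028441 in WT, and every member held at least 1736 counts in each library, so counting error is small beside the distance between libraries.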
